A study of Rattus norvegicus with 18 samples.

Results

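The genes described here are 10 genes of sarcoplasmic reticulum calcium handling: Atp2a2, Pln, Sln, Ryr2, Trdn, Jph2, Casq2, Casq1, Hrc and Dhrs7c. They were chosen by symbol, and all 10 were found among the 17312 genes of the deposited table. The cells were neonatal rat ventricular myocytes (NRVM), heart muscle cells cultured from Sprague-Dawley pups at day 2, first with 10% serum and then for 24 h without it. All cultures received SR9009, an agonist of the REV-ERB nuclear receptors, or vehicle for 24 h. Phenylephrine, an α1-adrenergic agonist that makes cultured cardiomyocytes hypertrophic, followed for 4 or 48 h, and the 0 h cultures stand before it. The 6 groups were SR9009 at 0, 4 and 48 h after phenylephrine and vehicle at 0, 4 and 48 h, with 3 libraries each.

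The authors combined the 3 libraries of a group into 1 FPKM per gene (fragments per kilobase of transcript, scaled to the mapped fragments of the library) with a lower and an upper bound. No standard deviation or test between groups was therefore possible, and depth is unknown. Differences are given as log2(FPKM + 1) of the first-named group minus the second, which understates those of low genes. In parentheses stands the range obtained when the bounds of both groups are taken at their extremes. A gene was called higher or lower when the difference reached 1 (2-fold) and this range left out 0, which is a description and not a test. There was no culture at 4 or 48 h without phenylephrine, so the drug and time in culture cannot be told apart within an arm. RNA came from whole cultures, in which fewer cells of a type and less RNA per cell cannot be told apart.

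The sarcoplasmic reticulum is the calcium store of muscle. The ryanodine receptor Ryr2 releases calcium from it to start contraction, and the pump Atp2a2 (SERCA2) returns it for relaxation, restrained by the small membrane proteins phospholamban (Pln) and sarcolipin (Sln). Calsequestrins and Hrc hold calcium in the lumen, triadin (Trdn) links them to the release channel, and junctophilin-2 (Jph2) ties the store to the surface membrane. In failing hearts, reduced calcium pumping and a changed ratio of pump to phospholamban are widely described.

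Group totals over the whole deposited table ran between 609018 and 710198 FPKM. From 5 FPKM upward, bounds typically lay between 14.8% and 15.0% of the value away from it (median gene of each group). The label of the cells was checked against markers. The 9 cardiomyocyte markers with an estimate in every group, such as Tnnt2, Tnnc1 and Myl2, summed to 9902, 17459 and 21612 FPKM with SR9009 at 0, 4 and 48 h, against 14630, 21728 and 23090 FPKM with vehicle. Myh6 and Myh7 had no estimate in some groups. Fibroblast markers were also present, with 9 of 10 summing to between 939 and 2089 FPKM, while Col1a2 was listed at 0 in all groups. So were smooth muscle markers, 9 of them summing to between 899 and 2060 FPKM, and 7 atrial markers, summing to between 231 and 897 FPKM. The 9 macrophage markers summed to at most 29.0 FPKM and the 8 endothelial markers to at most 26.8 FPKM. All differences within an arm share groups with each other, and each SR9009 difference shares both of its groups with phenylephrine differences.

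Levels spanned a wide scale. Pln and Atp2a2 were the most abundant, averaging 1911 and 1824 FPKM over the groups, and together they made up between 61.5% and 87.4% of the summed FPKM of the 10 genes. Casq2, the cardiac calsequestrin, averaged 493 FPKM, Jph2 129 FPKM and Ryr2 121 FPKM. Below these lay Casq1, the calsequestrin typical of skeletal muscle, at 70.4 FPKM, then Dhrs7c at 30.9, Trdn at 27.7 and Hrc at 21.8 FPKM. Sln, a pump inhibitor best known from atria and skeletal muscle, averaged 8.62 FPKM. The largest ranges over the 6 groups were those of Dhrs7c, whose highest value was 39.3 times its lowest, and Casq1, with 27.2 times. The other 8 genes varied between 2.04-fold and 3.17-fold.

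**Figure D1:**
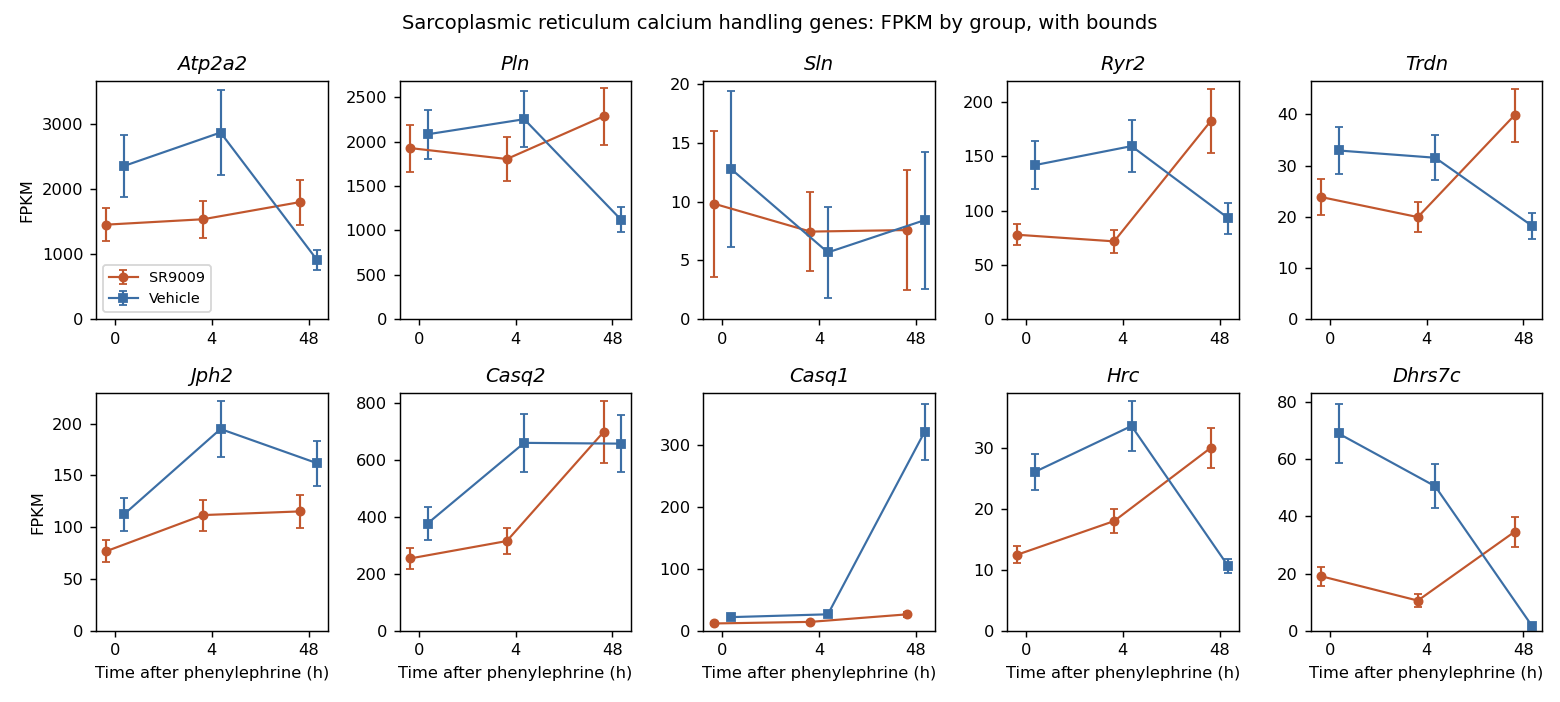
FPKM of each of the 10 genes (linear axis from 0, a different scale in each panel) against time after phenylephrine in h (categories, not to scale), SR9009 as circles and vehicle as squares, with the authors' lower and upper bounds as bars. In vehicle at 48 h, Atp2a2, Pln, Trdn, Hrc and Dhrs7c had their lowest value, while Casq1 reached 321 FPKM.

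With 48 h of phenylephrine in vehicle, against 0 h, the calcium pump gene Atp2a2, Hrc and Dhrs7c were lower and the skeletal calsequestrin gene Casq1 was higher. The 10 genes had 1 call higher (Casq1) and 3 lower (Atp2a2, Hrc and Dhrs7c), against 4.87% of all 10416 genes called higher and 3.96% called lower. Their median difference was -0.71, and that of all genes 0.01. The split of all genes, 507 higher and 412 lower, was 341 and 668 once FPKM had been rescaled to equal sums, which moved the median of all genes to -0.19. Under that rescaling the 10 genes had 1 call higher and 5 lower, with Pln at -1.11 and Trdn at -1.03 added. Without regard to size, the bounds of the 2 groups were apart for 6 genes as lower and 3 as higher, against 14.7% and 17.1% of all genes.

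The calcium pump gene Atp2a2 (chromosome 12, 39553903 to 39603326, rn6) had 1456, 1539 and 1803 FPKM at 0, 4 and 48 h with SR9009, against 2359, 2876 and 908 FPKM with vehicle. In vehicle the 48 h value stood below the other 5 groups, and its upper bound of 1062 FPKM lay under the lower bound of each of them. The difference between 48 and 0 h in vehicle was -1.38 (-1.91 to -0.83). With SR9009 it was 0.31 (-0.23 to 0.84), and the 3 SR9009 values had overlapping bounds.

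Phospholamban, Pln (chromosome 20, 34575950 to 34683506, rn6), had 1926, 1803 and 2283 FPKM at 0, 4 and 48 h with SR9009, against 2082, 2252 and 1121 FPKM with vehicle. As for the pump, only vehicle at 48 h was set apart, with an upper bound of 1258 FPKM below the lower bounds of the other groups. At -0.89 (-1.26 to -0.52) against 0 h it was short of the size for a call, which it reached with quantile normalization (-1.10) and equal sums (-1.11). At -1.01 (-1.38 to -0.62) against 4 h it met the size, but not with quantile normalization (-0.91). The table gives the centrosome-associated gene Cep85l the same locus as Pln, at 3.88 to 4.97 FPKM with lower bounds of 0, so fragments of this locus could be divided between them.

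Sarcolipin, Sln (chromosome 8, 58431407 to 58435654, rn6), had 9.83, 7.45 and 7.58 FPKM at 0, 4 and 48 h with SR9009, against 12.8, 5.68 and 8.42 FPKM with vehicle. Its bounds reached 44.8% to 69.2% of the value on each side, and every neighbouring pair in the order of its 6 levels overlapped. Differences of Sln were not detectable with bounds of this width.

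Ryr2, the release channel gene (chromosome 17, 65533998 to 66130712, rn6), had 77.7, 71.6 and 183 FPKM at 0, 4 and 48 h with SR9009, against 142, 159 and 93.0 FPKM with vehicle. The 2 arms crossed: the SR9009 values were the 2 lowest of the 6 before 48 h, and the SR9009 value at 48 h was the highest, though its bounds overlapped those of vehicle at 4 and 0 h. The 48 h difference from 0 h was 1.22 (0.80 to 1.63) with SR9009, called higher, and -0.60 (-1.05 to -0.16) with vehicle, not called.

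Triadin, Trdn (chromosome 1, 25403390 to 25839198, rn6), crossed between the arms as well, with 23.8, 19.9 and 39.8 FPKM with SR9009, against 32.9, 31.5 and 18.2 FPKM with vehicle. Its 48 h value was the highest of all groups with SR9009 and the lowest with vehicle, although each overlapped its neighbour in the order. The 48 h differences from 0 h were 0.72 (0.33 to 1.11) with SR9009 and -0.82 (-1.21 to -0.43) with vehicle, neither of a size to be called.

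The membrane tether gene Jph2 (chromosome 3, 159712325 to 159775643, rn6) went another way, with 76.9, 112 and 115 FPKM at 0, 4 and 48 h with SR9009, against 112, 195 and 162 FPKM with vehicle. Vehicle was the higher arm at each of the 3 times, with bounds apart. The 48 h differences from 0 h were alike in size, at 0.58 (0.18 to 0.97) with SR9009 and 0.52 (0.13 to 0.92) with vehicle.

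Casq2 (chromosome 2, 204512361 to 204568643, rn6), the main calcium buffer of the cardiac store, had 254, 315 and 698 FPKM at 0, 4 and 48 h with SR9009, against 377, 660 and 657 FPKM with vehicle. Both arms ended at a level that overlapped, but vehicle was there at 4 h and SR9009 was not. The 48 h difference from 0 h was 1.45 (1.01 to 1.89) with SR9009, called higher, and 0.80 (0.36 to 1.24) with vehicle.

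Casq1 (chromosome 13, 90592676 to 90602365, rn6) had 11.8, 14.4 and 26.6 FPKM at 0, 4 and 48 h with SR9009, against 22.1, 26.6 and 321 FPKM with vehicle. The vehicle value at 48 h stood alone, since the lower bound of 276 FPKM was far above the highest upper bound elsewhere, 30.4 FPKM. In vehicle it was 14.6 times the 0 h value, a difference of 3.80 (3.39 to 4.21) that ranked 6 from the highest of 10416 genes. With SR9009 the 48 h difference was 1.10 (0.71 to 1.5), also called higher. Of the skeletal muscle markers, 4 of 12 reached a mean of 1 FPKM and could be set beside it: in vehicle at 48 h against 0 h, Cacna1s was called higher, at 4.17 against 1.28 FPKM, and 0 lower. With SR9009 Cacna1s was called higher at 48 h against 0 h as well. For SR9009 minus vehicle at 48 h Cacna1s stood at -0.27 (-0.63 to 0.08), not called, and Mylpf at -1.13 (-1.93 to -0.40), called lower. The 9 skeletal muscle markers with an estimate above 0 in every group summed to between 4.39 and 23.8 FPKM, highest in vehicle at 48 h. The regulators Myod1, Myog, Myf5 and Pax7, which define skeletal muscle cells, each stood at 0.365 FPKM or lower in all 6 groups. Some markers of other muscle were called as well in vehicle at 48 h against 0 h. Of 9 smooth muscle markers, 4 were called higher (Cnn1, Acta2, Rgs5 and Cspg4), their sum being 2060 against 1489 FPKM, but 5 lay above and 4 below 0, with a median difference of 0.00. The 7 atrial markers summed to 897 against 369 FPKM, with Myl4 called higher and Myl7 and Nr2f2 lower, and of the 5 that could be compared 4 lay below 0, with a median of -0.84. Their part in the Casq1 difference was not tested.

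Hrc, the histidine-rich calcium binding protein of the lumen (chromosome 1, 101324788 to 101328391, rn6), had 12.5, 18.0 and 30.0 FPKM at 0, 4 and 48 h with SR9009, against 26.0, 33.6 and 10.6 FPKM with vehicle. At 48 h the 2 arms had moved in opposite directions from their own 0 h values. The difference was 1.2 (0.89 to 1.51) with SR9009 and -1.22 (-1.52 to -0.92) with vehicle, both called.

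Dhrs7c, a dehydrogenase/reductase of the sarcoplasmic reticulum of striated muscle (chromosome 10, 54352270 to 54370653, rn6), had 19.1, 10.6 and 34.6 FPKM at 0, 4 and 48 h with SR9009, against 69.0, 50.5 and 1.76 FPKM with vehicle. Bounds of neighbouring levels did not overlap anywhere in its order, so all 6 groups were apart. In vehicle the 48 h value was lower than that at 0 h by 39.3-fold, with a difference of -4.67 (-5.48 to -4.01) that ranked 2 from the lowest of 10416 genes. The vehicle value at 48 h had bounds of 0.799 to 2.71 FPKM, 54.5% of the value on each side, so folds against it are only loosely set. With SR9009 the 48 h difference was 0.83 (0.37 to 1.28), not called.

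With 4 h of phenylephrine, against 0 h, 0 of the 10 genes were called in either arm, while 4.48% of all 10408 genes were called with SR9009 and 5.08% of 10418 with vehicle. The medians of the 10 genes were -0.01 with SR9009 and 0.21 with vehicle, and those of all genes -0.06 and -0.02. The vehicle median of the 10 genes was 0.02 with equal sums, 0.23 with median centring and -0.11 with quantile normalization. With SR9009 these were -0.14, 0.05 and -0.21, so the sign turned with the scaling in both arms. Equal sums made the split of all genes 147 higher and 417 lower with SR9009, where it was 190 and 276 as deposited, and 198 and 409 with vehicle, where it was 287 and 242. The bounds were apart as higher for Jph2 in both arms, at 0.53 with SR9009 and 0.79 with vehicle, and for Hrc in both, at 0.49 and 0.35. Casq2 was apart with vehicle, at 0.81 (0.37 to 1.25), but not with SR9009, at 0.31 (-0.12 to 0.74). Dhrs7c was lower in both arms by this measure, at -0.80 (-1.32 to -0.29) with SR9009 and -0.44 (-0.88 to -0.01) with vehicle. Apart as higher were 11.5% of all genes with SR9009 and 14% with vehicle, and apart as lower 16% and 14%. The signs of Atp2a2 in both arms, and of Pln and Ryr2 in vehicle, turned with the scaling. Cardiomyocyte markers lay above 0 in 10 of 11 with SR9009, with a median of 0.75 and Myl2 and Myh6 called higher. With vehicle 9 of 10 did, with a median of 0.47 and 0 called. Fibroblast markers had a median of -0.53 with SR9009, with Col3a1, Dpt and Postn called lower, and -0.70 with vehicle, with Postn called lower. The part of these markers in the gene differences was not tested.

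**Figure D2:**
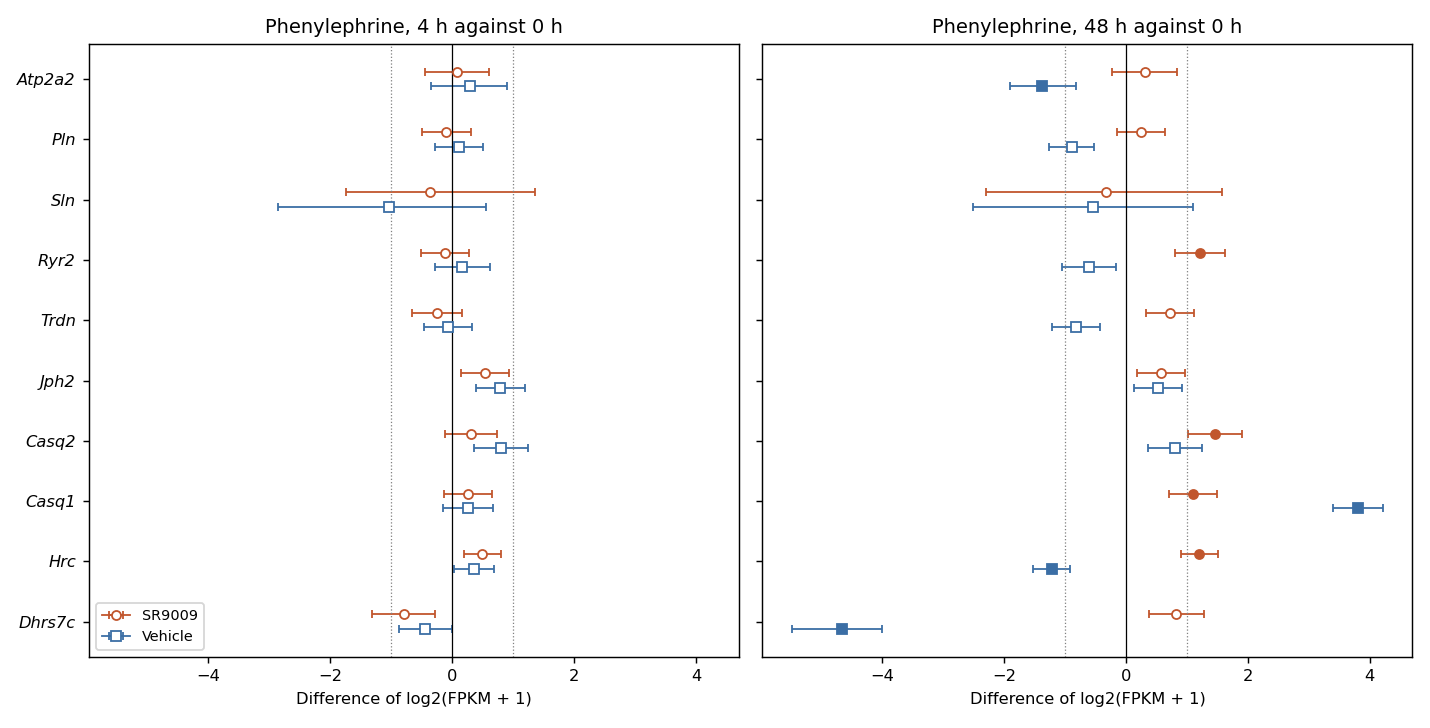
Difference of log2(FPKM + 1) between 4 h (left) or 48 h (right) of phenylephrine and 0 h for each gene, SR9009 as circles above vehicle as squares, with the range the authors' bounds allow as bars. Filled symbols were called, dotted lines mark differences of -1 and 1, and at 48 h Hrc lies at 1.2 with SR9009 and -1.22 with vehicle.

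In the SR9009 arm as a whole, 48 h of phenylephrine against 0 h gave 4 calls higher (Ryr2, Casq2, Casq1 and Hrc) and 0 lower. Of all 10409 genes, 1.26% were called higher and 1.16% lower. Bounds were apart as higher for 7 of the 10, where 9.49% of all genes were. The median of the 10 genes was 0.77, and that of all genes -0.03. As deposited 131 genes were higher and 121 lower, and with FPKM rescaled to equal sums 111 and 165. Beside this, 9 of 9 cardiomyocyte markers lay above 0 with a median of 0.95 in the SR9009 arm. Of them 4 were called higher (Tnnt2, Actn2, Myl2 and Myl3) and 0 lower. In the vehicle arm 6 of 9 cardiomyocyte markers lay above 0 with a median of 0.15, with Myl2 called higher and Ckm lower. Their part in the gene differences was not tested. Fibroblast markers had a median of -0.41 with SR9009, with 0 of 9 called, and -1.24 with vehicle, with 6 of 9 called lower, also without a test of their part.

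Between 48 and 4 h of phenylephrine the vehicle arm had 4 calls lower and 1 higher. Lower were Atp2a2 at -1.66 (-2.22 to -1.06), Pln, Hrc at -1.58 (-1.88 to -1.26) and Dhrs7c at -4.22 (-5.04 to -3.56), and Casq1 was higher at 3.55 (3.14 to 3.95). Called lower were 2.37% of all 10415 genes, and 3.85% higher. In the same comparison 4 of 9 fibroblast markers were called lower, with a median of -0.57, and of the cardiomyocyte markers Tnni3 and Ckm were, with a median of -0.16, and their part was not tested. In the SR9009 arm 3 were called higher, Ryr2 at 1.34 (0.89 to 1.77), Casq2 at 1.14 (0.70 to 1.58) and Dhrs7c at 1.62 (1.14 to 2.13), with 0 lower, where 2.49% of all 10406 genes were called higher and 2% lower. All 10 lay above 0 in that arm, but Sln, at 0.02, turned its sign with quantile normalization and with median centring. The cardiomyocyte markers there had 7 of 9 above 0, with a median of 0.40 and 0 called. Of the fibroblast markers 8 of 9 lay above 0, with a median of 0.26 and Postn called higher. The part of these markers was not tested.

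SR9009 was next set against vehicle at the same time. Before phenylephrine, after 24 h of the compound, all 10 genes lay below their vehicle level, with a median of -0.63 where that of all 10415 genes was -0.01. Called lower were Dhrs7c at -1.80 (-2.26 to -1.35) and Hrc at -1.0 (-1.31 to -0.69), 2 of 10, against 0.566% of all genes called lower and 0.499% higher. Hrc stood at the edge of the size and was no longer called with median centring, at -0.99. The bounds were apart as lower for 8 of 10, all but Pln and Sln, where 5.9% of all genes were apart as lower. The largest of the uncalled differences were those of Ryr2 at -0.86 (-1.26 to -0.45), Casq1 at -0.85 (-1.25 to -0.44) and Atp2a2 at -0.70 (-1.24 to -0.14). Pln differed by -0.11 (-0.50 to 0.28). Of the cardiomyocyte markers 9 of 10 were below 0, with a median of -0.48, but the 1 that met the rule, Myh7, was called higher, at 1.19 (0.79 to 1.58). Macrophage markers summed to 12.4 FPKM with SR9009 and 29.0 FPKM with vehicle, with 2 of 7 called lower. The part of these markers in the gene differences was not tested.

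At 4 h of phenylephrine SR9009 cultures had 3 of 10 genes called lower and 0 higher: Dhrs7c at -2.16 (-2.67 to -1.67), Ryr2 at -1.14 (-1.57 to -0.71) and Casq2 at -1.06 (-1.50 to -0.62). Of all 10412 genes 1.05% were called lower and 0.499% higher. Casq2 was not called with quantile normalization, at -0.96. The median was -0.85, against -0.06 for all genes. The same 8 genes as at 0 h had their bounds apart as lower, where 10.4% of all genes did. Among them Atp2a2 differed by -0.90 (-1.49 to -0.29), Hrc by -0.86 (-1.18 to -0.54) and Jph2 by -0.80 (-1.19 to -0.40). The split of all genes, 52 higher and 109 lower, was 61 and 78 after quantile normalization and 68 and 91 after median centring. Of the cardiomyocyte markers 8 of 10 were below 0, with a median of -0.32 and 0 called. Macrophage markers lay below 0 in 7 of 7, with 4 called lower and a median of -1.11, at a sum of 11 FPKM with SR9009 and 28.1 FPKM with vehicle. Fibroblast markers lay below 0 in 9 of 9, with 0 called and a median of -0.35, and the smooth muscle markers Cnn1 and Acta2 were called lower. The part of these markers was not tested.

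At 48 h of phenylephrine the difference had the opposite sign for most of these genes. SR9009 cultures had 4 of 10 called higher and 1 lower, against 2.33% of all 10408 genes called higher and 4.55% lower. Higher were Dhrs7c at 3.69 (3.03 to 4.51), Hrc at 1.42 (1.12 to 1.71), Trdn at 1.09 (0.71 to 1.46) and Pln at 1.03 (0.64 to 1.40). Dhrs7c was 19.7 times the vehicle value, a low one of 1.76 FPKM with wide bounds, and ranked 2 from the highest of all genes. Casq1, lower at -3.55 (-3.95 to -3.14), was below the vehicle value by 12.1-fold and ranked 2 from the lowest. Atp2a2 at 0.99 (0.46 to 1.51) and Ryr2 at 0.97 (0.51 to 1.41) fell just short of the size, and both reached it under the 3 other scalings, while Pln missed it with quantile normalization, at 0.99. Jph2 was the other gene apart as lower, at -0.49 (-0.87 to -0.10), and Casq2 differed by 0.09 (-0.36 to 0.54). Bounds were apart as higher for 6 of the 10 genes, where 11.3% of all genes were, and as lower for 2, where 17.3% were. Equal sums made the split of all genes 341 higher and 391 lower, in place of 243 and 474, and that of the 10 genes was 6 and 1. The 10 genes had a median of 0.98 and all genes one of -0.04, while that of the cardiomyocyte markers was 0.10, with 5 of 9 above 0, and Ckm called higher. The fibroblast markers had a median of 0.55, with Dcn and Lum called higher, and the smooth muscle markers one of -0.74, with Cnn1, Acta2 and Cspg4 called lower. What share the mixture of cells had in these differences was not tested.

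**Figure D3:**
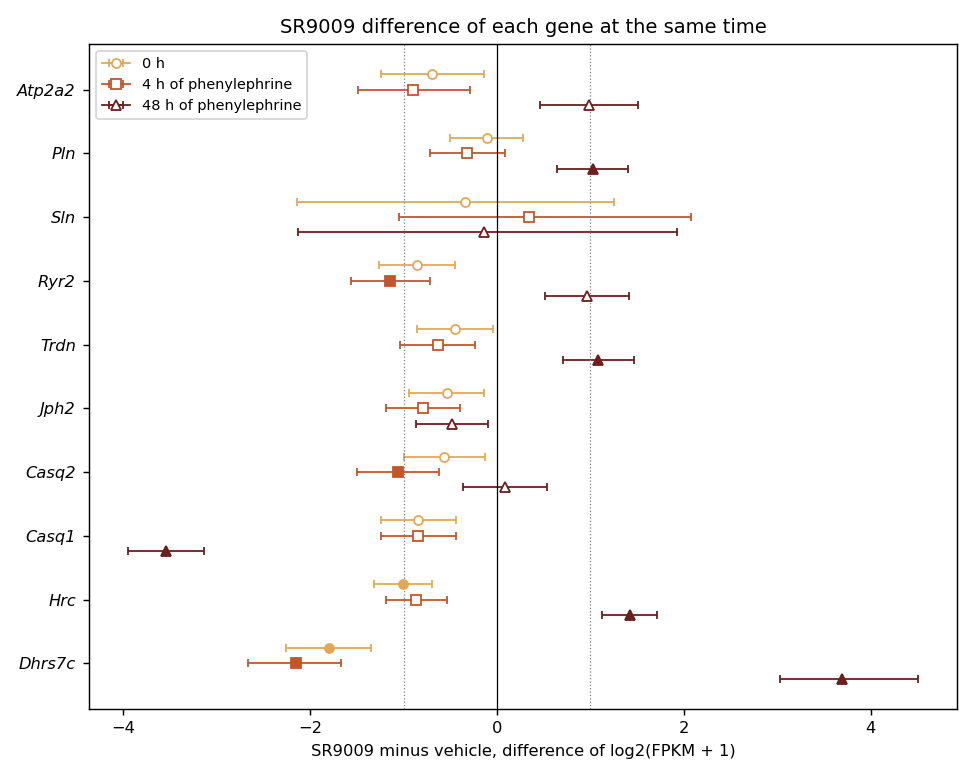
SR9009 minus vehicle, as difference of log2(FPKM + 1), for each gene at 0 h (circles), 4 h (squares) and 48 h (triangles) of phenylephrine, with the range the authors' bounds allow as bars and filled symbols for called differences. Dhrs7c lies at -1.80, -2.16 and 3.69 at 0, 4 and 48 h, while Casq1 lies at -0.85, -0.84 and -3.55.

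Whether the phenylephrine difference itself differed between the arms was measured as the difference with SR9009 minus that with vehicle. For 4 h against 0 h, 0 of the 10 genes were called, with 0.423% of all 10394 genes called. For 48 h against 0 h, 6 were called higher and 1 lower, against 3.71% and 5.34% of all genes. These were Dhrs7c at 5.49 (4.38 to 6.76), the highest of all 10394 genes, Hrc at 2.42 (1.82 to 3.03), Ryr2 at 1.83 (0.96 to 2.68), Atp2a2 at 1.68 (0.59 to 2.75), Trdn at 1.54 (0.75 to 2.32) and Pln at 1.14 (0.37 to 1.90). Casq1 was the one lower, at -2.70 (-3.51 to -1.89). Jph2 stood at 0.05 (-0.73 to 0.84) and Casq2 at 0.65 (-0.23 to 1.53). The median of the 10 was 1.34, and that of all genes -0.03. The same 6 genes were called higher and Casq1 lower under each of the 3 other scalings, although rescaling to equal sums made the split of all genes 512 higher and 442 lower, in place of 386 and 555. Of the fibroblast markers 5 of 9 were called higher in the same measure (Dcn, Lum, Dpt, Pdgfra and Tcf21), with a median of 1.05. The cardiomyocyte markers lay above 0 in 9 of 9, with a median of 0.39, and Tnnt2, Tnni3 and Ckm were called higher. Of the smooth muscle markers Cnn1, Acta2 and Cspg4 were called lower and Smtn higher. The part of these markers in the gene differences was not tested.

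The change in the SR9009 difference between 4 and 48 h was of the same kind. It was called higher for 7 genes, those 6 and Casq2 at 1.15 (0.26 to 2.04), and lower for Casq1 at -2.70 (-3.51 to -1.89). Of all genes 4.07% were called higher and 4.05% lower. Dhrs7c, at 5.85 (4.70 to 7.17), was again the highest of 10394 genes. Both of these ranks rest on the same 48 h groups, with vehicle at 1.76 FPKM and bounds 54.5% of the value away on each side. Here 4 of 9 fibroblast markers were called higher, with a median of 0.92, and of the cardiomyocyte markers Ckm was, with 7 of 9 above 0 and a median of 0.35. Their part was not tested.

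Ratios between genes were taken within a group, where a factor shared by all genes of the group has no effect. Quantile normalization, which has no such single factor, can change them and was not applied to them. Pln stood at 1.32, 1.17 and 1.27 times the FPKM of Atp2a2 with SR9009 at 0, 4 and 48 h, against 0.882, 0.783 and 1.23 with vehicle. In vehicle the 48 h ratio was above the earlier ones, while the SR9009 ratio was at that level at all times, but the ranges of all 6 overlapped (0.549 to 1.16 for vehicle at 4 h, the lowest, and 0.969 to 1.83 for SR9009 at 0 h, the highest). The ratio of Ryr2 to Atp2a2 was 0.0534, 0.0465 and 0.101 with SR9009, against 0.0601, 0.0554 and 0.102 with vehicle. Both arms thus ended at nearly the same ratio at 48 h, from Ryr2 and Atp2a2 levels that were about 2-fold higher with SR9009 for each gene (1.96 and 1.98 times vehicle). In SR9009 cultures the range of this ratio at 48 h (0.0714 to 0.145) was apart from that at 4 h (0.0336 to 0.0652). It overlapped that at 0 h (0.0395 to 0.0732), and in vehicle the ranges of all times overlapped. Casq1 was 4.45%, 4.37% and 3.67% of the summed calsequestrin FPKM with SR9009 at 0, 4 and 48 h, against 5.53%, 3.87% and 32.8% with vehicle. Casq1 to Casq2 was the ratio in which 1 group left all others, at 0.489 (0.364 to 0.659) in vehicle at 48 h. Sln stayed at or below 0.00751 times the FPKM of Pln.

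**Figure D4:**
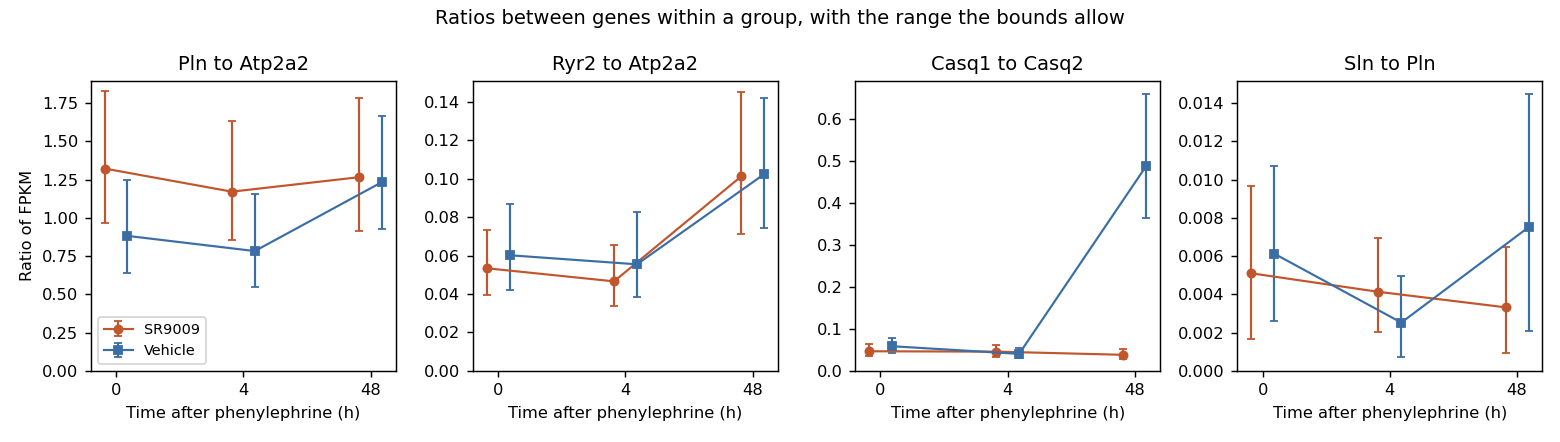
Ratio of the FPKM of 2 genes within a group (linear axes from 0) against time after phenylephrine in h (categories, not to scale), SR9009 as circles and vehicle as squares, with bars for the range the bounds allow. Casq1 to Casq2 is 0.489 in vehicle at 48 h and at most 0.0586 in the other groups.

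Among the 8 genes with a RefSeq promoter entry, 3 were called in vehicle at 48 h against 0 h. Their promoters are shown here: Casq1, called higher, and Hrc and Atp2a2, called lower. Ryr2 is added as the gene holding the word AGGTCA. The printed stretches are the 250 bases before the annotated start, from RefSeq on build GRCr8, written 5′ to 3′ on the gene's own strand. Capitals mark AGGTCA, a word of nuclear receptor sites in general. It was sought without regard to the bases around it, so a match does not show a binding site for REV-ERB.
Casq1, chr13:87212711-87212960, - strand: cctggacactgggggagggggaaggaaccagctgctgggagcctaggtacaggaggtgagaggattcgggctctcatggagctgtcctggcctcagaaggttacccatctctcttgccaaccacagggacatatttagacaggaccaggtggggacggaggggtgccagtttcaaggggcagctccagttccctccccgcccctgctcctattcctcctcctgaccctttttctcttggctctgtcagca
Hrc, chr1:104949500-104949749, + strand: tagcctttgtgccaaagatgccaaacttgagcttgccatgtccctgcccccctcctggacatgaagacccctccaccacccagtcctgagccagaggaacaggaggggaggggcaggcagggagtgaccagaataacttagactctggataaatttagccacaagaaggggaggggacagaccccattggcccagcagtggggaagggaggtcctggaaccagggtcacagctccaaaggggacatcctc
Atp2a2, chr12:39733269-39733518, + strand: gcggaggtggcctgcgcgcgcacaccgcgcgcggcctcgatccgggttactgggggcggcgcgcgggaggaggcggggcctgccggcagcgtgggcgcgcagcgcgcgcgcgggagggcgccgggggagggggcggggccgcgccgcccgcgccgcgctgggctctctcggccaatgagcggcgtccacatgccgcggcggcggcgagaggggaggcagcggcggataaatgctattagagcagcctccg
Ryr2, chr17:63081277-63081526, + strand: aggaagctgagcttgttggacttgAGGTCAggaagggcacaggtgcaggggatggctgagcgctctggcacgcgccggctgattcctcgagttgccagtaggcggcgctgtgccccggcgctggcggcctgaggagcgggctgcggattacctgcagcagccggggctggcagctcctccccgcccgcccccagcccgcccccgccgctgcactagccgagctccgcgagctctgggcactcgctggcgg
RefSeq promoter sequences were matched for 8 of the 10 genes (Dhrs7c and Sln had no entry). Words were sought on both strands in the 300 bases from 250 before to 50 after the start. AGGTCA occurred in 1 of 8, Ryr2, 226 bases before the start on the gene's strand, and in 16.2% of all 33469 promoters. The E-box CACGTG, bound by clock activators, occurred in 0 of 8 and in 6.42% of all promoters. The 1 form of the MEF2 word that was sought, CTA and TAG with any 4 bases between, occurred in 0 of 8 and in 3.84%. Other forms of the MEF2 word were not counted, so 0 of 8 does not mean that these promoters lack one. The loose form of the SRF box, CC and GG with any 6 bases between, occurred in 6 of 8 and in 71.5% of all, so most promoters of any gene hold it. The G and C content of the printed stretches was 59.6% for Casq1, 58% for Hrc, 80% for Atp2a2 and 72% for Ryr2.

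The wider calcium handling genes come in 4 lists of 10 or 12 measured genes. Between 0.499% and 5.34% of all genes were called in 1 direction in the SR9009 and 48 h comparisons, and nothing is read from 0 or 1 call in lists this short. Among 12 measured partners of release and junctions, S100a1, a calcium sensor that binds Ryr2 and SERCA, was called lower with SR9009 at 0 h, at 56.6 against 125 FPKM, a difference of -1.13 (-1.75 to -0.53). Its phenylephrine difference at 48 h was 0.88 (0.26 to 1.52) with SR9009 and -0.86 (-1.48 to -0.26) with vehicle, and the SR9009 value minus the vehicle value was 1.74 (0.52 to 3.0), called higher. Fkbp1a, which encodes the ryanodine receptor partner FKBP12, was called higher at 48 h in vehicle, at 506 against 237 FPKM, a difference of 1.09 (0.71 to 1.47). The other 10 of this group were not called in a phenylephrine difference at 48 h or an SR9009 difference. They include Sri, Tmem38a and Jph1, and the medians of the group lay between -0.17 and 0.16 in the 9 differences between 2 groups.

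Among 12 measured partners of calcium uptake, such as the calmodulin genes and Camk2d, 1 was called in these comparisons, the anchoring protein gene Akap6 at 1.07 (0.65 to 1.48) between 48 and 4 h with SR9009. Of 10 calcium binding proteins and chaperones of the endoplasmic and sarcoplasmic reticulum lumen, Hspa5 (BiP) was called lower at 48 h with SR9009, at 244 against 585 FPKM at 0 h, a difference of -1.26 (-1.69 to -0.82). In vehicle its difference was 0.09 (-0.34 to 0.53), and the difference between the arms was -1.35 (-2.22 to -0.48), called lower. In the SR9009 difference 0 of these 10 luminal genes were called at 0, 4 or 48 h. Their median was 0.26, 0.14 and -0.43 at these times, and that of all genes -0.01, -0.06 and -0.04.

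Of 10 measured genes of calcium entry and exit at the surface membrane, 0 were called in an SR9009 difference or a phenylephrine difference at 48 h. The most abundant were the sodium-calcium exchanger gene Slc8a1, at 239, 293 and 308 FPKM at 0, 4 and 48 h with SR9009 and 209, 429 and 280 FPKM with vehicle, and the caveolin gene Cav3, at 181, 254 and 344 FPKM with SR9009 and 244, 453 and 269 FPKM with vehicle. Chosen after their values were seen, Slc8a1 at 1.03 (0.58 to 1.48) and the channel subunit gene Cacnb2 at 1.14 (0.73 to 1.55) were called higher at 4 h in vehicle. Also chosen in that way, the L-type channel gene Cacna1c had a phenylephrine difference at 48 h that was higher with SR9009 than with vehicle by 1.15 (0.31 to 1.99). For the change in the SR9009 difference between 4 and 48 h, 2 of the 10 were called higher and 0 lower. These were Cacna1c at 1.15 (0.31 to 1.98) and Cav3 at 1.18 (0.33 to 2.03), where 4.07% of all genes were called higher.

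Genes with the most similar profile over the 6 groups were sought among 8312 genes of at least 5 FPKM on average, by the root mean square difference of mean-centred log2(FPKM + 1). For Casq1 these were the actin-binding gene Xirp2 at 0.23, calponin Cnn1 at 0.53 and Azin2 at 0.58, where the profile of Casq1 itself deviated from its mean by 1.54. Xirp2 had 8.96, 8.64 and 15.2 FPKM at 0, 4 and 48 h with SR9009, against 10.4, 15.8 and 252 FPKM with vehicle. For Dhrs7c no gene came as near: Atp6ap1l was at 0.68, Ntn1 at 0.77 and Ptn at 0.79, with a deviation of 1.56 for Dhrs7c. For Hrc the nearest were LOC499565 at 0.17 and the creatine kinase genes Ckm at 0.17 and Ckmt2 at 0.19, with a deviation of 0.60. Ckm had 461, 561 and 786 FPKM with SR9009, against 665, 861 and 327 FPKM with vehicle. For Atp2a2 they were Prkab1 at 0.12, Snhg4 at 0.13 and Emc9 at 0.18, and for Pln Pkig at 0.05, Aamdc at 0.06 and Ttc38 at 0.07, where Atp2a2 deviated by 0.53 and Pln by 0.35. These likenesses rest on 6 group values each and are given as a description.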

How the data were processed

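RNA was sequenced from 18 libraries, 3 in each of 6 groups, made with a stranded mRNA kit. The authors' deposited table gives FPKM with lower and upper bounds, 1 value per gene and group from its 3 libraries, per the file headers. Per the submitters' processing notes, FastQC, Trim Galore, TopHat and Cuffdiff were used with build rn6. What level of confidence the bounds have, and how libraries were scaled to each other, is not given in the sources used here. Nothing says whether the libraries of a group came from separate cultures. The columns give no values per library, so limma, planned only for the case that they did, was not run.

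Differences of log2(FPKM + 1) and their ranges were computed with Python 3.11.15, numpy 2.4.6 and pandas 2.3.3 for 10545 genes averaging 1 FPKM or more. Values without an estimate, listed at 0 or outside their own bounds (172 values) entered no difference. Locus starts were read as counted from 0, because gene lengths then equal those of RefSeq assembly GRCr8 for 2074 symbols, against 277 otherwise, and are printed counted from 1. Of the wider gene lists, each gene called in a phenylephrine difference at 48 h or an SR9009 difference is named, or the 2 most abundant where none was, and for Dhrs7c, Casq1, Hrc, Atp2a2 and Pln the 3 genes nearest in profile. The alternatives were pseudocounts of 0.1 and 5, no filter, 3 other scalings, size without bounds, and a size of 1.5-fold. The members, lists and rules were chosen with earlier results of these data known.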

Additional observations from a re-analysis of the deposited data

Results flagged for a closer look

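Hrc and Dhrs7c were each called in opposite directions in the 2 arms under the same contrast. For 48 h of phenylephrine against 0 h, Hrc differed by 1.2 with SR9009 and by -1.22 with vehicle. For 48 h against 4 h, Dhrs7c differed by 1.62 with SR9009 and by -4.22 with vehicle. The table holds 1 value per group, so that these differences between the arms were not tested. Checks for a single library far from the others could not be made for the same reason.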

How the results depend on the processing

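Of 960 values of a gene in a comparison under an alternative, 918 kept their call, 34 gained one, 24 of them with the size lowered to 1.5-fold, 8 lost one and 0 turned sign while called. Genes called among the 10 for SR9009 against vehicle at 0 h numbered 2, and 1 with a pseudocount of 5 or median centring, where Hrc was lost. With a size of 1.5-fold the count was 5 there, 8 for SR9009 against vehicle at 4 h, 8 for 48 against 0 h in vehicle, 6 for 48 against 4 h with SR9009, and at 4 against 0 h 1 with SR9009 and 2 with vehicle. Without regard to bounds 1 was called at 4 against 0 h in vehicle, Sln at -1.04. A pseudocount of 5 also ended the calls of Trdn for SR9009 at 48 h (0.95), Casq1 at 48 h with SR9009 (0.91) and Hrc at 48 h with vehicle (-0.99). Over all genes, a pseudocount of 5 gave 43 calls for SR9009 against vehicle at 0 h, where 111 were made, 89 in place of 161 at 4 h and 359 in place of 717 at 48 h. With SR9009 it gave 218 in place of 466 calls for 4 against 0 h, 163 in place of 252 for 48 against 0 h and 235 in place of 467 for 48 against 4 h, and with vehicle 266 in place of 529, 486 in place of 919 and 321 in place of 648. Between the arms it gave 28 in place of 44, 568 in place of 941 and 506 in place of 844. The 1.5-fold size gave 483, 745 and 1914 calls for SR9009 at 0, 4 and 48 h, 1712, 1042 and 1687 for the SR9009 arm, 1768, 2259 and 1799 for the vehicle arm, and 81 between the arms at 4 h, where 84 were called without regard to bounds. A pseudocount of 0.1 gave 255 for SR9009 at 4 h. Rescaling to equal sums moved the median of all genes by over 0.1 also for 4 against 0 h, to -0.18 with SR9009 and -0.20 with vehicle, for SR9009 at 48 h to 0.06 and between the arms at 48 against 0 h to 0.08. No paired analysis was possible because the columns carry no replicate, and leaving out a replicate was not run for the same reason. Depth is unknown.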
